A study of Mus musculus with 24 samples.

Results

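The TFE3 KO was compared with the parental line of B16-F10, a mouse melanoma cell line, to ask which genes change when TFE3 is lost while MITF and TFEB are still present. The comparison was chosen by the library labels and uses 6 of the 24 libraries of the series, 3 of the TFE3 KO and 3 of the parental line, across all 12010 genes of the deposited table. The series holds 8 lines, namely the parental cells and the KOs of MITF, TFE3 and TFEB alone, in pairs and together (TKO). All of them derive from B16F10-luc2, which carries a luciferase reporter, and were grown in DMEM with serum. The parental group is labelled wild type, and the TFE3 KO group carries a disrupted Tfe3 gene and no other labelled change. KO cells were isolated as clones, so the TFE3 KO is 1 clone, and its 3 libraries are repeats of that clone. A difference between this clone and the parental line and an effect of losing TFE3 cannot be told apart within these 6 libraries. The labels do not say that the repeats were separate cultures, so p-values measure only the spread between libraries. The main fit shares that spread over all 8 lines.

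TFE3, TFEB and MITF are basic helix-loop-helix leucine zipper transcription factors that bind as dimers to E-box elements with the core CACGTG or CATGTG. TFE3 and TFEB are held in the cytoplasm when mTORC1 is active and enter the nucleus on starvation or lysosomal stress, where they drive genes of lysosomes and autophagy. MITF is the lineage factor of melanocytes and controls pigment enzymes. TFE3 and TFEB are also known to act on inflammatory genes in macrophages.

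The guide named in the deposited description of the KO is printed because it defines the perturbation, 5′ to 3′ with the adjacent PAM, read from the genome, in capitals.
Tfe3 guide: cgtagaagctgtcaggatcgAGG
Its 20-base target lies at chrX:7631806-7631825 of GRCm39 on the minus strand, in coding exon 2 of 10 of Tfe3 (chrX:7628761-7641444, plus strand). The study's methods text names a different guide for mouse Tfe3, and the 2 sources were not reconciled here. The libraries read only the 3′ end of poly(A) RNA, far from this target, so Tfe3 reads give the level of the transcript and do not show whether protein was made. The study examined protein in its B16-F10 KO lines by western blot, which was not assessed here.

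Levels are given as CPM, the deposited TMM-scaled values relative to sequencing depth, and differences as log2 of (CPM + 1) in the TFE3 KO minus the parental line, a scale on which genes with few reads appear to change less than they do. A gene is said to have risen or fallen where the adjusted p (limma, Benjamini-Hochberg over all genes) was under 0.05, and "2-fold" means a log2 difference of at least 1 with an unadjusted p under 0.05, the threshold the study uses. The 6 libraries held 21413759 to 23814972 reads on genes. They differed in spread: TFE3 KO replicate 1 stood apart on the second principal component (21.6, against -12.5 to 0.16 in the others), and on the first it lay at 1.23, nearer to the parental libraries (-20.5 to -7.66) than TFE3 KO replicates 2 and 3 (27.4 and 17.4). Parental replicate 3, TFE3 KO replicate 2, TFEB KO replicate 2 and TFEB/TFE3 DKO replicate 2 deviated from their line means together (correlations 0.53 to 0.77 over 9539 genes, which share the depth and composition of each library), while TFE3 KO replicate 1 deviated in the opposite direction (-0.74 to -0.59). Counts without these 4 libraries are given for several of the gene lists.

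Tfe3 itself was measured at 35.4, 38.4 and 37.4 CPM in the parental libraries and at 11.6, 8.44 and 12.2 CPM in the TFE3 KO. The groups did not overlap, and Tfe3 fell by 1.71 on the log2 scale (SE 0.16, adjusted p = 7.04e-08), leaving 0.29 of the parental mean. Tfeb, the closest relative, lay at 8.20, 7.87 and 10.3 CPM in the parental libraries and at 12.3, 10.9 and 8.21 CPM in the KO. The groups overlapped (log2 0.22, SE 0.18, adjusted p = 0.458). Mitf lay at 763, 768 and 797 CPM in the parental libraries and at 719, 648 and 693 CPM in the KO. These groups did not overlap, and the difference did not pass the test (log2 -0.18, SE 0.09, adjusted p = 0.234).

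The cells kept the transcripts that define melanocytic cells. Dct, an enzyme of melanin synthesis, lay at 17027 to 18263 CPM in the parental libraries and at 19960 to 21068 CPM in the KO. Tyrp1 and Tyr, the other tyrosinase family enzymes, overlapped between the groups, as did Mlana and Sox10, the last a neural crest transcription factor. Pmel, the fibril protein of melanosomes, lay at 3588 to 4092 CPM in the parental libraries and at 4435 to 5148 CPM in the KO and did not pass the test (log2 0.33, SE 0.11, adjusted p = 0.0537). Of 12 immune markers and 8 each of endothelial, fibroblast and epithelial cells, 2 of each cell type were in the table, and none of these 4 lists summed to more than 10.7 CPM in any of the 6 libraries. The defining immune marker Ptprc, the epithelial Epcam and the endothelial Cdh5 were not among the genes in the table.

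Falls outnumbered rises. By the adjusted p, 934 genes fell (7.78% of the genes tested) and 540 rose (4.5%). At 2-fold, 161 genes were lower (1.34%) and 44 were higher (0.366%). All 161 lower genes also passed the adjusted p and had no overlap between the groups, beside 1733 lower genes without overlap in the whole table (14.4%). Of the 44 higher genes, 29 passed the adjusted p and 29 did not overlap, beside 1476 (12.3%) in the table. The 161 lower genes had a median of 9.27 CPM in the parental line and 2.44 CPM in the KO, and the 44 higher genes 2.77 and 10.3 CPM. In a fit of the 6 libraries alone, which has fewer degrees of freedom and takes no spread from other lines, 369 genes fell and 133 rose. Most differences were small: 52.4% of the genes that rose and 34.7% of those that fell differed by less than 0.5 on the log2 scale.

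The count of 2-fold higher genes rested on single libraries. TFE3 KO replicate 2 held the highest KO value for 32 of the 44 genes, and TFE3 KO replicate 1 held the lowest for 34 of them. Without replicate 1 the count was 145, without replicate 2 it was 26, and without parental replicate 3 it was 90. The count of 2-fold lower genes ran from 154 to 169 when 1 library was left out and was 161 without the 4 libraries that deviated together, where the 2-fold higher genes numbered 41.

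**Figure D1:**
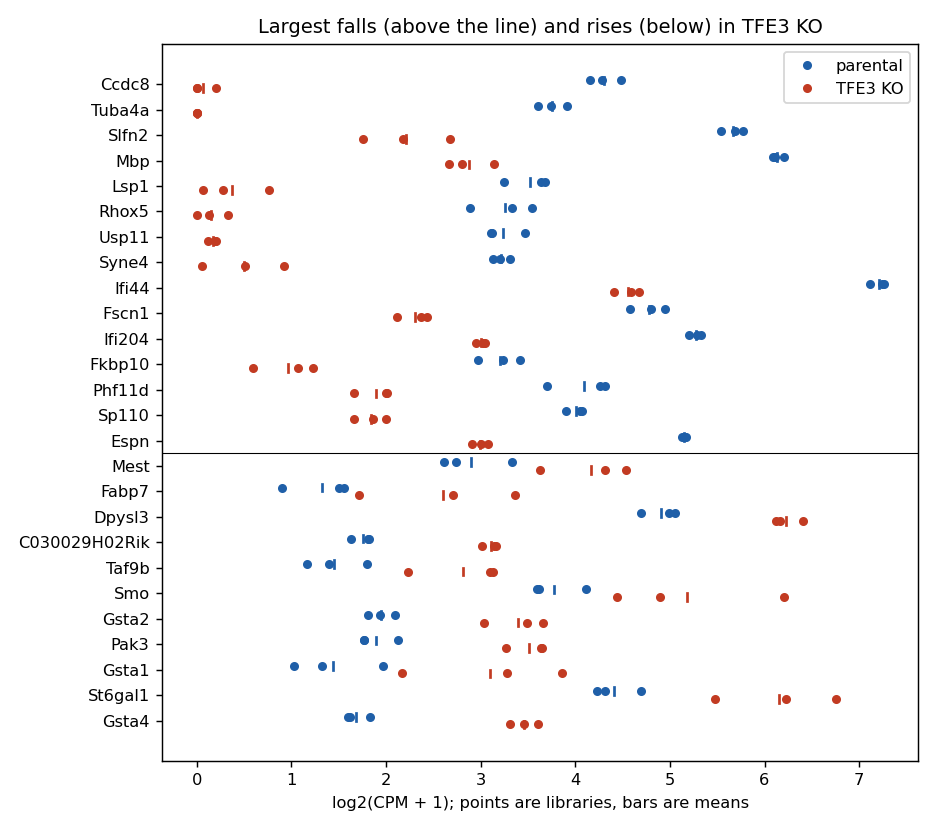
CPM of the 15 genes with the largest falls and 11 of the 12 with the largest rises, as log2 of (CPM + 1), 1 point per library with a bar at each mean, parental libraries in blue and TFE3 KO libraries in red. The groups do not overlap for any of the genes, and among the rises the 3 KO points of Smo spread from 20.7 to 72.9 CPM.

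Several of the largest falls went to almost no reads. Ccdc8, a subunit of the 3M complex with CUL7 and OBSL1, lay at 18.4, 16.8 and 21.3 CPM in the parental libraries and at 0.15, 0 and 0 CPM in the KO. It was at least 135-fold lower when set against a floor of 3 reads per library (adjusted p = 6.41e-14). Tuba4a, an alpha-tubulin, lay at 14.1, 12.4 and 11.1 CPM and had no read in any KO library, which makes it at least 89.7-fold lower (adjusted p = 2.17e-15). Its 3′ end lies near that of Stk16 on the other strand. Usp11, an X-linked deubiquitinase, lay at 7.72, 10.0 and 7.64 CPM and at 0.15, 0.087 and 0.14 CPM in the KO, at least 60.6-fold lower.

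Mbp, known as myelin basic protein, lay at 66.9, 67.9 and 72.8 CPM in the parental libraries and at 5.98, 7.83 and 5.37 CPM in the KO (log2 -3.26, SE 0.17, adjusted p = 5.08e-12). Lsp1, an F-actin-binding protein of leukocytes, had 8.5 to 11.9 CPM in the parental libraries and 0.047 to 0.70 CPM in the KO. Rhox5, an X-linked homeobox gene, had 6.41 to 10.7 CPM and 0 to 0.26 CPM. None of these overlapped between the groups. The rest of the largest falls included the next 4 genes. Fscn1, which bundles actin, fell from 26.8, 29.9 and 23 CPM to 4.19, 3.33 and 4.39 CPM (log2 -2.47, SE 0.17, adjusted p = 6.96e-10). Espn, another actin bundler, fell from a mean of 34.6 ± 0.59 to 7 ± 0.49 CPM (SD, n = 3 libraries each; limma adjusted p = 6.96e-10). Syne4, a nesprin of the outer nuclear membrane, lay at 7.73 to 8.91 CPM and at 0.043 to 0.90 CPM in the KO. Fkbp10, a collagen chaperone of the ER, lay at 6.82 to 9.71 CPM and at 0.51 to 1.34 CPM. Cd82, a tetraspanin, fell from 4.27, 4.23 and 5.30 CPM to 1.1, 1.86 and 1.59 CPM (log2 -1.16, SE 0.16, adjusted p = 1.60e-05).

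Of the 15 largest falls, 5 were of genes that interferon induces: Slfn2, Ifi44, Ifi204, Phf11d and Sp110. Slc27a1, a fatty acid transporter (FATP1) that the study singles out for TFE3, lay at 9.45, 6.55 and 7.73 CPM in the parental libraries and at 2.99, 2.55 and 2.47 CPM in the KO. The groups did not overlap, and it fell by 1.27 on the log2 scale (SE 0.19, adjusted p = 5.57e-05). Of 61 measured genes of fatty acid uptake, activation and oxidation, Slc27a1 included, 4 fell (6.56%, beside 7.78% of all genes) and 3 rose (4.92%, beside 4.5%), and with 1 library left out 2 to 5 were lower and 0 to 5 higher. Mgll, which hydrolyses monoacylglycerol, rose from 64.7, 64.2 and 74.5 CPM to 106, 104 and 98.0 CPM (log2 0.59, SE 0.17, adjusted p = 0.0211).

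Among the rises, Pak3, a p21-activated kinase, rose from 2.42, 2.41 and 3.37 CPM to 8.63, 11.5 and 11.4 CPM (log2 1.63, SE 0.20, adjusted p = 5.86e-06). Dpysl3, a collapsin response mediator of growing neurites, rose from 32.2, 24.8 and 30.7 CPM to 68.7, 70.9 and 83.8 CPM (log2 1.32, SE 0.13, adjusted p = 2.54e-07). The 3 KO libraries lay close together for both genes.

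Other rises were uneven between the KO libraries. St6gal1, a sialyltransferase, lay at 18.9, 17.7 and 25 CPM in the parental libraries and at 43.5, 107 and 74.2 CPM in the KO. Smo, the transducer of Hedgehog signalling, lay at 11.1, 11.3 and 16.4 CPM and at 20.7, 72.9 and 28.8 CPM. Fabp7, a brain-type fatty acid binding protein, lay at 1.94, 0.86 and 1.84 CPM and at 2.29, 9.30 and 5.55 CPM. In each of them TFE3 KO replicate 2 was highest and replicate 1 lowest. When 1 library was left out, the highest adjusted p was 0.00708 for St6gal1, 0.135 for Smo and 0.218 for Fabp7. Taf9b, a TFIID-related factor, and Mest, an imprinted gene, reached 0.134 and 0.0395.

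Glutathione transferases of the alpha class, which detoxify lipid peroxidation products, rose while other genes of the same list fell. Gsta4 rose from 2.03, 2.55 and 2.07 CPM to 11.2, 10.0 and 8.91 CPM (log2 1.78, SE 0.17, adjusted p = 1.75e-07). Gsta2 rose from 2.50, 3.27 and 2.83 CPM to 7.23, 11.6 and 10.3 CPM (log2 1.45, SE 0.20, adjusted p = 3.43e-05). Gsta1 lay at 1.04, 1.5 and 2.92 CPM and at 3.49, 13.5 and 8.68 CPM (adjusted p = 0.0116), and its highest adjusted p with 1 library left out was 0.0958. Gsta1 and Gsta2 are close copies whose reads the counting could have split, so each value alone is uncertain. Of 67 measured genes of glutathione, thioredoxin and NRF2, 6 rose (8.96%, beside 4.5% of all genes) and 7 fell (10.4%, beside 7.78%), with a median log2 difference of 0.00, the same as over all genes. Leaving out 1 library gave 4 to 8 higher and 5 to 10 lower genes. Slc7a11, the cystine importer, fell from 13.6, 12.3 and 16.9 CPM to 5.39, 7.53 and 8.26 CPM, and Gclm, which limits glutathione synthesis, fell by 0.51 on the log2 scale.

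Genes induced by interferon fell in the largest share of the 30 gene lists, apart from an endothelial list with 2 measured genes. They encode antiviral effectors (Oas, Ifit and Mx proteins), RNA and DNA sensors, and immunity-related and guanylate-binding GTPases, and are switched on by STAT and IRF factors below the interferon receptors. Of 94 listed effectors and sensors 86 were measured. Of these 63 fell (73.3%, beside 7.78% of all genes), 2 rose (Cgas by 0.35 and Ifi27 by 0.32 on the log2 scale) and 21 did not pass the test. The median was -0.85. Of the 86 genes 37 were 2-fold lower, all among the 63, beside 1.34% of all genes. The members together summed to 11818 to 12157 CPM in the parental libraries and 6931 to 7964 CPM in the KO. When 1 library was left out 57 to 62 of them were lower, and 57 were lower without the 4 libraries that deviated together.

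Ifi44 lay at 153, 138 and 151 CPM in the parental libraries and at 20.2, 23 and 24.5 CPM in the KO (log2 -2.65, SE 0.11, adjusted p = 6.41e-14), so that the parental mean was 6.52 times the KO mean. Slfn2, a Schlafen protein of lymphocyte quiescence, lay at 45.6, 53.8 and 50.4 CPM and at 3.54, 2.38 and 5.41 CPM (log2 -3.46, SE 0.21, adjusted p = 7.61e-11). Slfn genes are close copies in a cluster, so reads may be shared among them. Ifi204, a DNA-binding member of the p200 family, lay at 37.9, 39.2 and 35.8 CPM and at 6.73, 7.27 and 7.14 CPM (log2 -2.26, SE 0.12, adjusted p = 5.08e-12). Phf11d lay at 18.9, 12.1 and 18.1 CPM and at 2.99, 2.16 and 3.03 CPM, and Sp110, a nuclear body protein, at 15.6, 15.8 and 14.0 CPM and at 2.64, 2.16 and 2.99 CPM. The KO libraries were tight for all of these, including replicate 1, which stood apart in other genes. Falls also covered Ifit3 (log2 -1.73), the Oas-like Oasl2 (-1.55), Mx1 (-1.33), the viperin gene Rsad2 (-1.38), the deISGylase Usp18 (-1.16) and the RNA sensor Ifih1 (-0.86).

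**Figure D2:**
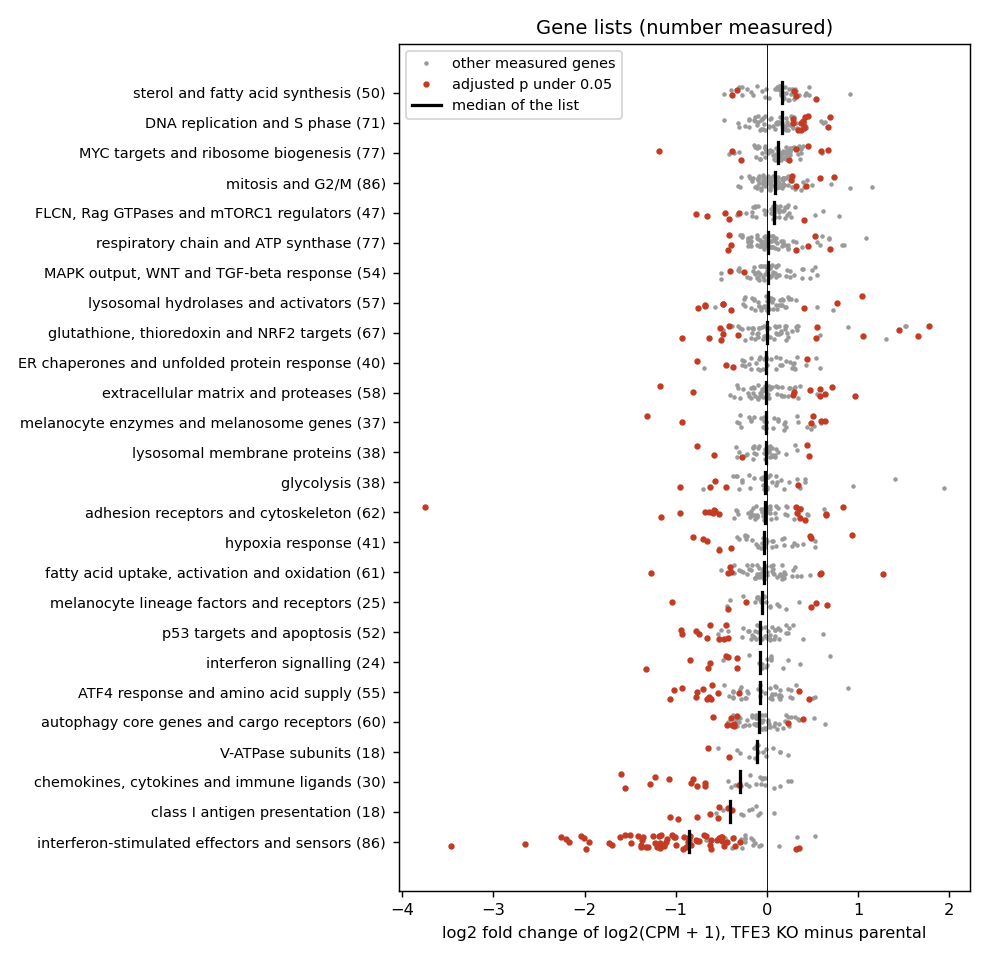
Log2 difference of each measured gene in each list, 1 point per gene, TFE3 KO minus parental, with the number measured beside each list name, genes with an adjusted p under 0.05 in red, other genes in grey and a bar at each median. The interferon-stimulated list has its median at -0.85 and the other lists drawn have medians between -0.41 and 0.17.

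Upstream of these genes, 8 of 24 measured interferon receptors, kinases, STATs and IRFs fell (33.3%, beside 7.78% of all genes) and none rose. Irf7, the factor that amplifies the type I response, lay at 1.51, 1.55 and 1.93 CPM in the parental libraries and at 0.20, 0 and 0 CPM in the KO (adjusted p = 1.20e-05). Stat2 fell from 27.4, 26.3 and 29.1 CPM to 13.1, 16.4 and 15.4 CPM (log2 -0.85, SE 0.10, adjusted p = 3.48e-06). Irf1 fell from 69.9, 74.6 and 60.2 CPM to 43.5, 39.7 and 45.9 CPM (log2 -0.65, SE 0.10, adjusted p = 0.000157). Irf9 fell by 0.43, and Ifnar2, a receptor chain, by 0.33. Ifnar2 lies on chromosome 16, whose genes were lower together in this KO, with a median of -0.32. Irf2, which also fell, reached an adjusted p of 0.119 with 1 library left out, and the list held 4 to 7 lower genes across those fits, 4 without TFE3 KO replicate 2 and 5 without parental replicate 2. It held 4 without the 4 libraries that deviated together and 4 in a fit of the 6 libraries alone.

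Class I antigen presentation fell in 8 of 18 measured genes (44.4%, beside 7.78% of all genes) and rose in none (median -0.41). Tapbp, tapasin, which loads peptides on class I molecules, fell from 183, 182 and 171 CPM to 127, 83.4 and 68.7 CPM (log2 -0.98, SE 0.19, adjusted p = 0.00134). Tap1, of the peptide transporter, fell from 21.7, 20.5 and 21.9 CPM to 12.6, 12.2 and 11.7 CPM (log2 -0.77, SE 0.17, adjusted p = 0.00436). H2-D1, a class I heavy chain, fell from 145, 147 and 164 CPM to 79.6, 116 and 103 CPM (log2 -0.62, SE 0.18, adjusted p = 0.0237). H2-K1 had at most 1.51 CPM in a parental library and 0 CPM in the KO (at least 8.02-fold lower), and B2m, the class I light chain, fell by 0.52 on the log2 scale. H2 genes are close copies, so reads may be split among them. H2-D1 reached an adjusted p of 0.0921 with 1 library left out, and the list had 5 to 8 lower genes in those fits, with 5 without parental replicate 2, and 4 in a fit of the 6 libraries alone.

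Of 70 chemokines, cytokines and immune ligands 30 were measured, 11 fell (36.7%, beside 7.78% of all genes) and none rose. With 1 library left out 8 to 12 were lower, 9 were in a fit of the 6 libraries alone, and 7 without the 4 libraries that deviated together. Cxcl10, which draws T cells, fell from 55.2, 58.5 and 64.7 CPM to 15.2, 22.2 and 19.7 CPM (log2 -1.61, SE 0.19, adjusted p = 2.02e-06). Ccl5 fell from 94.7, 102 and 97.0 CPM to 42.4, 40.2 and 41.2 CPM (log2 -1.23, SE 0.09, adjusted p = 1.61e-09). Cd274, which encodes the checkpoint ligand PD-L1, fell from 14.0, 17.0 and 13.8 CPM to 5.79, 5.19 and 5.55 CPM (log2 -1.29, SE 0.19, adjusted p = 7.86e-05). Il11, a cytokine of the IL-6 family, fell from 3.49, 3.82 and 3.73 CPM to 0.85, 0.65 and 0.33 CPM. In these bulk samples a smaller share of cells with the transcript and less of it per cell cannot be told apart.

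**Figure D3:**
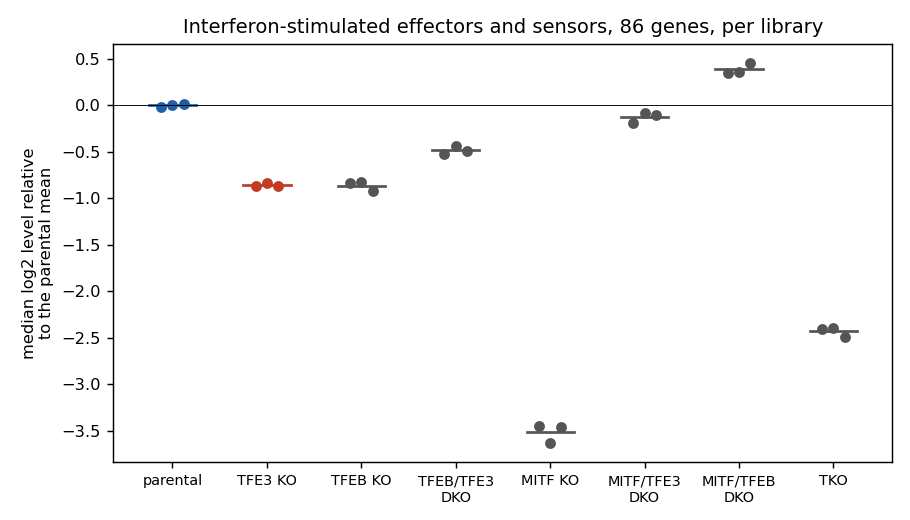
Median log2 level of the 86 measured interferon-stimulated effectors and sensors in each library, relative to the parental mean, 1 point per library and a bar at each line's mean. The TFE3 KO libraries lie at -0.87 to -0.83, beside the TFEB KO at -0.92 to -0.83 and above the MITF KO at -3.63 to -3.44.

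The letters of the promoters were searched for the elements these factors are known to bind, on both strands of GRCm39. The search covered 300 bases per gene, 250 before the start of the Ensembl canonical transcript and 50 after it. The stretches below are printed because they hold GAAANNGAAA, the half-site pair of interferon-responsive elements, in genes that fell; capitals mark the match, and the letters are in the direction of the gene.
Ifi204: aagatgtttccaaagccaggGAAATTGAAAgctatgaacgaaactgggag
Cxcl10: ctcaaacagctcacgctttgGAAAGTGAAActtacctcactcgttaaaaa
Cd274: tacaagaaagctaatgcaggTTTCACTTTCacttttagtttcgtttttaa
Stat2: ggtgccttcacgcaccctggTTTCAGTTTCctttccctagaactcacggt
They lie at chr1:173594617-173594666 (minus strand), chr5:92496932-92496981 (minus), chr19:29344468-29344517 (plus) and chr10:128106125-128106174 (plus), and the matches begin 36, 213, 41 and 207 bases before the start. The element was chosen after the falls had been seen. It was found in 3.41% of 11664 promoters, in 17.2% of 157 promoters of 2-fold lower genes, in 2.44% of 41 of 2-fold higher genes and in 48.2% of 85 promoters of the interferon-stimulated list. Within that list 73.2% of the genes with it and 72.7% of those without it fell.

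The core E-box CACGTG was found in 10.2% of all promoters, in 8.28% of those of 2-fold lower genes, in none of the 41 of 2-fold higher genes, in 10.0% of 910 of genes that fell and in 9.35% of 524 of genes that rose. TCACGTG, which contains CACGTG, was in 5.86% of all promoters, in 26.8% of 56 promoters of lysosomal hydrolases and activators and in none of 85 of the interferon-stimulated list. The promoter of Gla, alpha-galactosidase A, is printed because it holds 3 matches, in capitals, 2 of TCACGTG and 1 of TCATGTG, at chrX:133501923-133502002 (minus strand).
Gla: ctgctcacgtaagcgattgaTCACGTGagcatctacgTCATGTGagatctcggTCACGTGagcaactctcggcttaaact
Gla fell from 14.8, 13.6 and 18.7 CPM to 7.93, 8.96 and 9.61 CPM (log2 -0.75, SE 0.16, adjusted p = 0.00309). Its 3′ end lies near that of Rpl36a on the other strand.

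Lysosomal and autophagy genes are the classical targets of TFE3, and the shares of the lysosomal lists that passed the test lay near the 7.78% of all genes that fell and the 4.5% that rose. Of 57 measured lysosomal hydrolases and activators 6 fell (10.5%) and 3 rose (5.26%), with a median of 0.01. With 1 library left out 4 to 8 were lower and 1 to 3 higher, and a fit of the 6 libraries alone had 3 lower and 1 higher. Of 38 lysosomal membrane proteins 3 fell (7.89%) and 2 rose (5.26%), with 1 to 5 lower and 0 to 2 higher when 1 library was left out. Of 18 V-ATPase subunits 2 fell (11.1%) and none rose, with 1 to 3 lower in those fits. Ctsc, cathepsin C, rose from 7.55, 7.78 and 8.41 CPM to 13.3, 21.3 and 18.5 CPM (log2 1.05, SE 0.17, adjusted p = 0.000158). M6pr, a mannose 6-phosphate receptor, rose from 46.8, 38.7 and 54.0 CPM to 57.3, 113 and 77.3 CPM, and its adjusted p was 0.218 at most with 1 library left out. Nagpa, which uncovers the mannose 6-phosphate tag, fell by 0.68 on the log2 scale (adjusted p = 0.000691). Mfsd12, a cysteine transporter of melanosomes and lysosomes, fell from 63.6, 55.8 and 43.8 CPM to 33.6, 30.9 and 29.4 CPM (log2 -0.77, SE 0.13, adjusted p = 0.00029). Atp6v1f fell from 1129, 1263 and 1044 CPM to 865, 676 and 667 CPM (adjusted p = 0.00222).

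Of 60 measured autophagy genes 7 fell (11.7%, beside 7.78% of all genes) and 2 rose (3.33%, beside 4.5%), among the falls Sqstm1 (-0.36), Map1lc3b (-0.32) and Gabarapl1 (-0.39). In a fit of the 6 libraries alone none passed in either direction, and with 1 library left out there were 2 lower genes (without parental replicate 2) to 10 (without TFE3 KO replicate 1). Without the 4 libraries that deviated together 3 were lower. Atg4b, which processes the LC3 family, fell from 51.8, 54.4 and 50.2 CPM to 43.3, 37.0 and 34.5 CPM (log2 -0.44, SE 0.08, adjusted p = 0.00102). Of 47 genes of FLCN, Rag GTPases and mTORC1 regulation 5 fell (10.6%) and 1 rose. That count rested on single libraries, with none lower without TFE3 KO replicate 2, 2 without parental replicate 1, 2 without parental replicate 2 and 3 without TFE3 KO replicate 3. In a fit of the 6 libraries alone no gene of this list passed, and without the 4 libraries that deviated together 1 was lower. Sesn2 and Ddit4, which restrain mTORC1, fell by 0.77 and 0.65, and Deptor, another inhibitor of it, rose by 0.40.

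Genes of the ATF4 response, which supplies amino acids under stress, fell in 12 of 55 measured cases (21.8%, beside 7.78% of all genes) and rose in 2 (3.64%, beside 4.5%). In a fit of the 6 libraries alone 7 were lower and none higher. Ddit3 (CHOP) fell from 243, 245 and 202 CPM to 136, 102 and 102 CPM (log2 -1.02, SE 0.11, adjusted p = 6.48e-07). Trib3, a pseudokinase induced with it, fell from 73.3, 66.6 and 58.4 CPM to 36.9, 28.3 and 28.4 CPM (log2 -1.06, SE 0.12, adjusted p = 1.97e-06). Atf5 (-0.77) and Chac1 (-0.63) fell as well, and 9 to 16 genes of the list were lower with 1 library left out. Of 40 ER chaperone and unfolded protein genes 3 fell (7.5%) and 1 rose (2.5%), with 2 to 5 lower and 0 to 2 higher when 1 library was left out.

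Cdkn1a (p21), which inhibits cyclin-dependent kinases, fell from 789, 822 and 768 CPM to 434, 347 and 462 CPM (log2 -0.95, SE 0.10, adjusted p = 7.81e-07), so that the parental mean was 1.91 times the KO mean. Of 52 measured p53 targets and apoptosis genes 10 fell (19.2%, beside 7.78% of all genes) and none rose. With 1 library left out 8 to 10 were lower, and 4 were in a fit of the 6 libraries alone. Cdkn1c (p57) lay at 3.84, 2.59 and 3.15 CPM and at 0.95, 1.30 and 1.31 CPM, and Gadd45g fell by 0.74. Bbc3 (PUMA), Bax and Mdm2 fell by 0.66, 0.45 and 0.47.

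Of 71 S-phase genes 13 rose (18.3%, beside 4.5% of all genes) and none fell (median 0.16). Mcm2, of the replicative helicase, rose from 262, 277 and 269 CPM to 359, 384 and 364 CPM (log2 0.45, SE 0.07, adjusted p = 7.99e-05). Pcna, the sliding clamp, overlapped between the groups, with 61.1, 59.3 and 81.5 CPM and 80.7, 144 and 110 CPM. The count depended on single libraries, with 6 S-phase genes higher without TFE3 KO replicate 2, 7 without parental replicate 1 and 16 without TFE3 KO replicate 1, 10 without the 4 libraries that deviated together and 5 in a fit of the 6 libraries alone. Of 86 mitosis genes 6 rose (6.98%), with 1 higher without parental replicate 2, 10 without TFE3 KO replicate 1, 2 without the 4 libraries and 1 in a fit of the 6 libraries alone. Espl1 (separase) rose from 27.2, 25.4 and 25 CPM to 39.3, 50.4 and 41.9 CPM (log2 0.73, SE 0.13, adjusted p = 0.000482).

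Of 77 MYC targets and ribosome biogenesis genes 5 rose (6.49%, beside 4.5% of all genes) and 3 fell (3.9%, beside 7.78%). Leaving out 1 library gave 2 to 8 higher and 1 to 4 lower genes, with 2 and 1 without TFE3 KO replicate 2. Mxd4, an antagonist of MYC, fell from 6.77, 6.32 and 7.24 CPM to 2.24, 2.47 and 2.57 CPM (log2 -1.18, SE 0.15, adjusted p = 5.32e-06). Ddx18, a helicase of ribosome assembly, rose from 127, 118 and 124 CPM to 173, 226 and 193 CPM (log2 0.67, adjusted p = 0.0123), with an adjusted p of 0.0815 at most when 1 library was left out.

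Pigment and lineage genes changed individually. Slc24a5, an ion exchanger of melanosomes, rose from 571, 540 and 554 CPM to 828, 898 and 869 CPM (log2 0.64, SE 0.07, adjusted p = 2.34e-06). Oca2, a melanosomal anion channel, fell from 4.53, 3.05 and 4.05 CPM to 1.05, 0.61 and 1.21 CPM (log2 -1.32, SE 0.19, adjusted p = 4.74e-05). Of 37 measured melanosome genes 4 rose (10.8%, beside 4.5% of all genes) and 2 fell (5.41%, beside 7.78%), and 3 to 7 were higher with 1 library left out. Axl, a receptor tyrosine kinase of MITF-low melanoma cells, fell from 32.5, 38.8 and 27.2 CPM to 17.8, 15.5 and 12.9 CPM (log2 -1.04, SE 0.12, adjusted p = 3.08e-06). Kit and Met rose by 0.66 and 0.49.

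Metabolic lists had few genes past the test, and their counts moved with single libraries. Of 38 measured glycolysis genes 4 fell (10.5%, beside 7.78% of all genes) and 1 rose (2.63%, beside 4.5%), with 3 to 6 lower and 0 to 4 higher when 1 library was left out. Slc16a3 (the lactate exporter MCT4) fell from 99.8, 100.3 and 95.9 CPM to 51.5, 48.5 and 51.7 CPM (log2 -0.95, SE 0.14, adjusted p = 7.13e-05). Of 41 hypoxia genes 5 fell (12.2%) and 3 rose (7.32%), and there were 1 lower and 1 higher without TFE3 KO replicate 2, 2 lower without TFE3 KO replicate 3 and in each fit without parental replicate 1 or 2, and 6 lower and 4 higher without TFE3 KO replicate 1. Mt2, a metallothionein, rose from 381, 381 and 430 CPM to 590, 1035 and 713 CPM (log2 0.93, SE 0.17, adjusted p = 0.000528). Of 77 respiratory chain genes 4 rose (5.19%) and 3 fell (3.9%), and with 1 library left out 1 to 7 were higher and 1 to 11 lower, 7 and 11 of them without TFE3 KO replicate 1. Of 50 sterol and fatty acid synthesis genes 3 rose (6%) and 2 fell (4%), with 1 to 5 higher and 0 to 5 lower in those fits, 5 and 5 without TFE3 KO replicate 1.

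Of 58 matrix genes 8 rose (13.8%, beside 4.5% of all genes) and 2 fell (3.45%, beside 7.78%). With 1 library left out 2 to 5 were higher, 2 without TFE3 KO replicate 2, 3 were higher without the 4 libraries that deviated together, and a fit of the 6 libraries alone had 1. Col1a2, a chain of type I collagen, rose from 9.49, 9.19 and 12.3 CPM to 18, 21.8 and 23.5 CPM (log2 0.97, SE 0.13, adjusted p = 2.21e-05). Of 62 adhesion and cytoskeleton genes 9 fell, a larger share than the 7.78% of all genes, and 8 rose (12.9%, beside 4.5%). With 1 library left out 5 to 9 were lower and 2 to 6 higher. A fit of the 6 libraries alone had 4 lower and 2 higher. Of 54 genes of MAPK, WNT and TGF-beta output 2 fell (3.7%) and none rose, with 0 to 2 lower and 0 to 3 higher when 1 library was left out.

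Among the markers of other cell types, Pecam1, an endothelial adhesion molecule, lay at 8.59, 8 and 7.73 CPM in the parental libraries and at 2.79, 1.82 and 1.91 CPM in the KO (log2 -1.53, SE 0.20, adjusted p = 9.86e-06). Vwf fell by 0.64 on the log2 scale from 1.81 to 3.01 CPM to 0.65 to 1.60 CPM, and Postn, of fibroblasts, rose by 0.64 from 0.58 to 1.32 CPM to 1.54 to 2.47 CPM. The immune markers Lyz2 and Fcer1g and the epithelial markers Krt14 and Cdh1 did not pass the test. The summed endothelial markers ran from 10.4 to 10.7 CPM in the parental libraries and from 2.57 to 4.39 CPM in the KO, and the part of other cells in the results was not tested.

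Genes of chromosome 16 were lower together in the TFE3 KO. Among genes with a mean of at least 5 CPM, 303 lay on it, and 134 of them fell and 1 rose (44.2% and 0.33%). Their median was -0.32, a ratio of 0.802, with quartiles of -0.49 and -0.11, while the medians of the other 19 chromosomes lay between -0.067 and 0.073. Of the 303 genes, 260 were below 0 (85.8%). The median was -0.31, -0.32 and -0.30 in the 3 TFE3 KO libraries, -0.046 to -0.024 in the TFEB KO and -0.035 to 0.0051 in the TFEB/TFE3 DKO. All 3 KO libraries shared it, and no library of the TFEB/TFE3 DKO did.

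Windows of 100 neighbouring genes were used to see how far this reached along the genome. Of 7340 windows, 201 had a median below -0.3, and all of them lay on chromosome 16, from chr16:3561921-97656409 of GRCm39, which held 300 of the 303 genes. The MITF/TFEB DKO and the TKO lay above the parental line on the same genes, with library medians of 0.21 to 0.27. The windows and this count were chosen after the data had been seen. Chromosome medians moved further from the parental line elsewhere in the series. In the TKO libraries they were -0.59 to -0.56 on chromosome 19 and 0.49 to 0.54 on chromosome 1. DNA copy number was not measured, and the cause of these shifts was not tested.

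**Figure D4:**
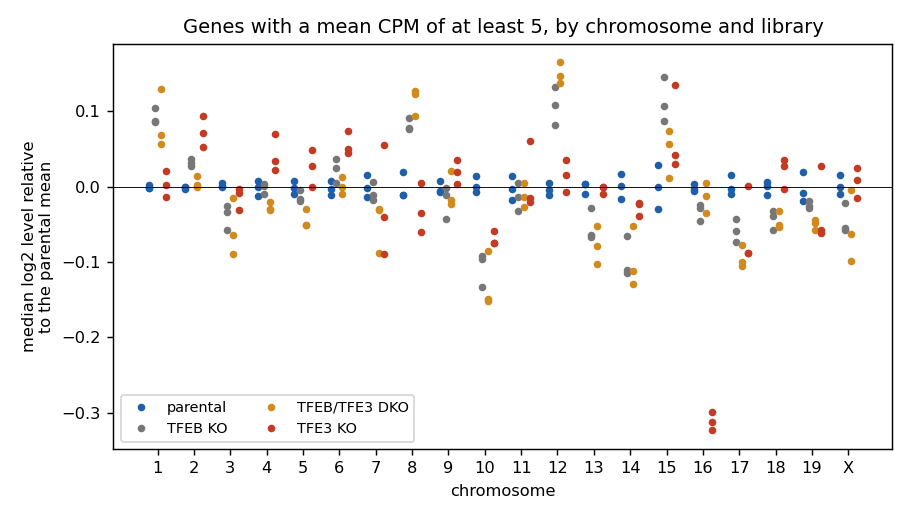
Median log2 level, relative to the parental mean, of the genes on each chromosome with a mean of at least 5 CPM, 1 point per library of the parental line (blue), TFEB KO (grey), TFEB/TFE3 DKO (orange) and TFE3 KO (red). On chromosome 16 the TFE3 KO libraries lie at -0.32 to -0.30 and those of both lines without TFEB at -0.046 to 0.0051.

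Chromosome 16 carried 366 of the placed genes (3.05% of all genes) and 142 of the 934 genes that fell (15.2%). Away from it 792 genes fell and 538 rose, and 146 were 2-fold lower and 43 were 2-fold higher, so 15 of the 161 2-fold lower genes lay on it. It held 6 genes of the interferon-stimulated list, all of which fell. Nagpa and Sdf2l1, a chaperone cofactor, and Gbe1, the glycogen branching enzyme, also lie on it, and the last 2 fell by 0.44 and 0.45. Ifnar2, of the interferon signalling genes, lies on it and fell. St6gal1 lies on it and rose.

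Loss of TFE3 can be read a second time by comparing the TFEB/TFE3 DKO with the TFEB KO, which share no library with the TFE3 KO or the parental line. In that comparison 150 genes rose (1.25%) and 112 fell (0.933%). Tfe3 fell by 1.61 (SE 0.16, adjusted p = 2.64e-06), close to its fall in the parental background. Of the 161 genes 2-fold lower in the TFE3 KO, 5 were lower there (3.11%) and 33 were higher (20.5%), with a median of 0.25. Of the 44 genes 2-fold higher, 2 were higher and 1 was lower. Set directly against the TFEB KO, the TFE3 KO was lower in 83 of the 161 genes (51.6%) and higher in 3 (1.86%). The others did not differ by this test, and genes already low in the TFEB KO had less room to fall. Tuba4a fell in both backgrounds, by 3.75 and by 3.8, with no read left in the TFEB/TFE3 DKO libraries and 13.1 ± 2.41 CPM (SD, n = 3 libraries) in the TFEB KO. Pak3 rose in both, by 1.63 and by 3.02.

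The effect of TFE3 loss differed between the backgrounds, tested as an interaction, for 872 genes that were lower and 613 that were higher in the parental background than in TFEB KO cells (7.26% and 5.1%). Without TFE3 KO replicate 2 the total of 1485 became 903, and without TFEB KO replicate 2 it became 937. Slc27a1 fell by 1.27 in the parental background and differed by -0.08 in the TFEB KO background (adjusted p of the interaction = 0.00423). Ifi44 fell by 2.65 and rose by 0.91 (interaction adjusted p = 4.85e-13), and Slfn2 fell by 3.46 and rose by 1.08 (5.54e-10). Cdkn1a fell by 0.95 and rose by 0.47 (4.5e-07). Over the interferon-stimulated list 62 genes had a lower effect in the parental background and 1 a higher one, Ifi27. In the TFEB/TFE3 DKO against the TFEB KO 21 of the 86 rose and none fell (median 0.34).

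**Figure D5:**
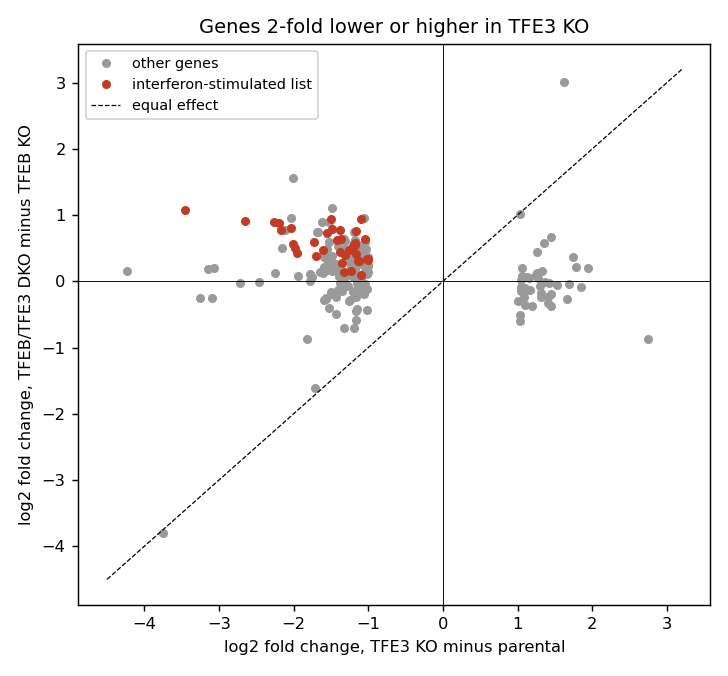
Log2 difference on loss of TFE3 in the parental background (horizontal axis) and in the TFEB KO background (vertical axis) for the genes 2-fold lower or higher in the TFE3 KO, 1 point per gene, with the interferon-stimulated list in red and a dashed line at equal effects. The 161 genes 2-fold lower in the TFE3 KO have a median of 0.25 in the TFEB KO background, and Tuba4a falls in both, by 3.75 and 3.8.

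The TFE3 KO and the TFEB KO overlapped in the level of the interferon-stimulated list. Relative to the parental mean the median was -0.87 to -0.83 in the TFE3 KO, -0.92 to -0.83 in the TFEB KO and -0.53 to -0.44 in the TFEB/TFE3 DKO. When the TFE3 KO was compared with the TFEB KO, 457 genes were higher (3.81%) and 819 lower (6.82%), and of the 86 list genes 4 were higher and 8 lower (median -0.04). Those counts shared the TFE3 KO libraries with the comparison above. Mbp, Usp11 and Fkbp10, at 106 ± 16.4, 14.0 ± 5.44 and 21.1 ± 2.45 CPM in the TFEB KO (SD, n = 3 libraries), lay above the TFE3 KO, and Ccdc8, Lsp1 and Syne4 were also low in the TFEB KO, at 1.82 ± 0.56, 0.92 ± 0.30 and 1.47 ± 0.54 CPM.

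In cells without MITF the interferon-stimulated list moved in opposite directions on loss of TFE3. In the MITF/TFE3 DKO against the MITF KO, where 18.1% of all genes rose and 19.7% fell, 79 of the 86 genes were higher and 1 was lower (median 3.44). On loss of TFE3 from the MITF/TFEB DKO, which gives the TKO, where 5.41% rose and 6.99% fell, none were higher and 78 were lower (median -2.97). The 161 genes 2-fold lower in the TFE3 KO were higher in 61.5% and lower in 11.8% of cases in the former, and lower in 52.2% and higher in 2.48% in the latter. Ifi204 lay at 0 CPM in all 3 MITF KO libraries, 9.90 ± 0.40 CPM in the MITF/TFE3 DKO, 60.1 ± 5.52 CPM where MITF and TFEB were lost and 0.086 ± 0.15 CPM in the TKO (SD, n = 3 libraries).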

How the data were processed

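Poly(A) RNA of 8 B16F10-luc2 lines was sequenced from the 3′ end (QuantSeq Forward), 3 libraries per line. Per the submitters' processing notes, reads were checked with FastQC 0.11.9, trimmed with Trim Galore 0.6.5 and cutadapt 2.10 and mapped with STAR 2.7.8a to mm39. The authors normalised gene counts with edgeR and deposited a signal of TMM-scaled CPM for 12010 genes; the counting tool and annotation are not given in the sources used here. Steps between deposited values gave whole reads for at least 99.99% of genes in each library (tolerance 0.1 reads), and columns of other samples numbered 0.

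All 24 libraries entered 1 fit of the line with limma 3.58.1 on log2(CPM + 1), with a variance trend and 16 residual degrees of freedom, and p-values were adjusted by Benjamini-Hochberg. Genes with at most 3 reads in every KO library are given as bounds. Replicates differed by more than sampling noise. Alternatives were edgeR 4.0.16 quasi-likelihood on the recovered reads, pseudocounts of 0.25 and 5, a mean CPM of at least 5, median-of-ratios factors, the compared libraries alone, the replicate block and each library left out. The genes named included the 15 largest falls and 12 largest rises by log2 difference. These were taken among genes with an adjusted p under 0.05, a log2 difference of at least 1 and no overlap. Up to 4 genes per list by size of change, the factors, melanocytic markers and Slc27a1 were also named, and further list members were named after their values were seen. Some genes chosen in this way are not reported here. The 30 gene lists and the members were chosen with earlier results of these data known, and the letters GAAANNGAAA, the chromosome counts and the fit without 4 libraries were chosen after the data had been seen. Positions and promoters came from the GENCODE annotation of GRCm39 for 11664 genes, with the start taken from the Ensembl canonical transcript. The fit was tested on simulated data. R 4.3.3 and Python 3.11.15 were used.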

Additional observations from a re-analysis of the deposited data

Results flagged for a closer look

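The effect of TFE3 loss differed between the parental background (TFE3 KO minus parental) and the TFEB KO background (TFEB/TFE3 DKO minus TFEB KO) for 65 of the 125 named genes. It was tested as an interaction in the limma fit of all libraries with a Benjamini-Hochberg adjusted p over all genes. Over all 12010 genes, the effect was lower in the parental background for 7.26% and higher for 5.1%. The values are the effect in the parental background minus that in the TFEB KO background on the log2 scale. A negative value is thus an effect that was lower in the parental background. Of the largest falls in the TFE3 KO, the difference was -4.39 for Ccdc8, -4.54 for Slfn2, -3.00 for Mbp, -3.34 for Lsp1, -2.85 for Rhox5, -3.27 for Usp11, -2.69 for Syne4 and -3.57 for Ifi44. It was -2.46 for Fscn1, -3.16 for Ifi204, -2.37 for Fkbp10, -3.09 for Phf11d, -2.94 for Sp110 and -2.66 for Espn. Among the largest rises the difference was 1.56 for Gsta4, 1.37 for St6gal1, 1.93 for Gsta1, -1.39 for Pak3, 1.64 for Smo, 0.78 for C030029H02Rik and 1.49 for Dpysl3. For interferon signalling and class I presentation it was -1.96 for Irf7, -1.26 for Stat2, -0.82 for Irf1, -0.75 for Irf2, -1.05 for H2-K1, -1.45 for Tapbp, -1.22 for Tap1 and -1.05 for H2-D1. Immune ligands had differences of -1.72 for Cxcl10, -1.72 for Il11, -1.38 for Cd274 and -1.59 for Ccl5. In the ATF4, p53 and mTORC1 lists it was -1.64 for Trib3, -1.51 for Ddit3, -1.62 for Slc7a11, -1.42 for Cdkn1a, -0.95 for Gadd45g and -1.53 for Ddit4. Replication, mitosis and MYC genes had differences of 1.01 for Pcna, 0.99 for Mcm6, 0.50 for Mcm2, 0.93 for Espl1, 0.47 for Foxm1, -1.81 for Mxd4 and 1.02 for Ddx18. Lysosome and autophagy genes had differences of 1.13 for Ctsc, 1.02 for M6pr, -0.82 for Gla, -1.22 for Mfsd12, -0.84 for Atp6v1f, -0.50 for Atp6v1d, -0.40 for Atg4b and -0.69 for Bnip3l. For melanocyte, metabolic and surface genes it was -1.19 for Slc27a1, -1.80 for Oca2, 0.48 for Slc24a5, -0.998 for Axl, -0.95 for Slc16a3, 1.09 for Mt2, 0.99 for Col1a2 and -0.93 for Cd82. Markers of other cell types differed by -2.43 for Pecam1, -1.85 for Vwf and 0.97 for Postn. As examples, the limma adjusted p of the difference was 5.54e-10 for Slfn2, lower than that for Ifi44, and 0.0434 for St6gal1. The genes were named for their change in the TFE3 KO, which enters these differences, so their direction is partly set by that choice. The starting levels also differed between the backgrounds. Ccdc8, Lsp1 and Syne4 were already low in the TFEB KO, which left them little room to fall further. The interferon-stimulated list already lay at -0.92 to -0.83 in the TFEB KO relative to the parental mean. Each arm of the difference is 1 clone against 1 clone, and the cause was not tested.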

How the results depend on the processing

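The counts of genes called in the TFE3 KO against the parental line depended on the scale and on the libraries, and 117 of 117 named genes with an adjusted p under 0.05 kept their direction in every alternative. Of these 60 stayed past the threshold in every alternative that tested them and 71 in every fit that left out 1 library. The 2-fold counts (44 higher, 161 lower) were 170 and 381 with edgeR on the recovered reads, 122 and 295 with a pseudocount of 0.25, 13 and 62 with a pseudocount of 5, and 24 and 106 with a mean CPM of at least 5, as the pseudocount shrinks low genes and the filter removes them. With 1 library left out they ran from 26 to 145 higher and from 154 to 169 lower. The adjusted p counts (540 higher, 934 lower) were 133 and 369 with only the libraries compared, which leaves fewer degrees of freedom, and 256 and 557 without the 4 libraries that vary together, and they ran from 226 (without TFE3 KO replicate 2) to 702 higher and from 538 to 1085 lower. Without parental replicate 2 they were 236 and 556, and without parental replicate 1 the higher count was 283. A fit of the compared libraries alone also takes no spread from the other lines, which the main fit shares. Library deviations from the line mean had an SD of 0.16 to 0.23 in the TFE3 KO and 0.12 to 0.15 in the parental line. In the TKO the SD was 0.088 to 0.10. For the interaction (1485 genes) the counts were 709 with only the libraries compared, 789 without the 4 libraries and 903 to 1935 with 1 library left out. For the TFE3 KO against the TFEB KO (457 higher, 819 lower) they were 27 and 132 with only the libraries compared and ran from 164 to 1008 and from 489 to 1207 with 1 left out. The cause of the dependence on single libraries was not tested. Replicate numbers are shared between lines. They did not pair the parental with the TFE3 KO libraries, whose same-numbered deviations correlated at 0.23, -0.40 and 0.22. Among the 4 libraries that vary together, all but the parental library are replicate 2. Pairing by number across the other lines was not tested with these correlations. With the replicate block the counts were 45 and 161 at 2-fold and 546 and 944 by adjusted p. The TFE3 KO had 3 libraries of 1 clone, and no second TFE3 KO clone was analysed here. How far depth limited the results was not tested.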
